A study of Mus musculus with 6 samples.

Results

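The 10 genes described here handle cholesterol once a cell holds more of it than it needs: *Abca1*, *Abcg1*, *Abcg4* and *Apoe* serve sterol export, *Nr1h2* and *Nr1h3* encode the liver X receptors (LXR), *Soat1* and *Nceh1* make and cleave stored cholesteryl esters, and *Cyp46a1* and *Ch25h* make oxysterols. They were taken by gene symbol from a table of 55492 genes, and all 10 were found. The table holds 6 libraries of poly(A) RNA, 1 per mouse, from cells that were pulled from dissociated whole brains with magnetic beads against O4, a surface lipid of late oligodendrocyte progenitors and immature oligodendrocytes. The mice were 16 days old, untreated, and either WT (3 mice) or Npc1-/- (3 mice). Per the methods, the Npc1-/- mice carried the nih allele and were F1 hybrids of BALB/cJ and C57BL6/J parents, and littermates of both sexes were used. The nih allele is inherited through the germline, so its effect is not limited to oligodendrocytes. The labels call the cells O4+ oligodendrocytes, and the series text calls them progenitors.

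NPC1 moves cholesterol out of late endosomes and lysosomes, and without it cholesterol that enters a cell by endocytosis stays there. Sterol that does reach the rest of the cell is sensed in part through oxysterols, which bind the LXR. An LXR pairs with a retinoid X receptor (RXR) on DNA and turns on export genes such as *Abca1*, *Abcg1* and *Apoe*, and surplus cholesterol is esterified by SOAT1 and stored in lipid droplets. In the brain, which makes its own cholesterol, astrocytes and microglia are known as main sources of APOE, while oligodendrocytes consume large amounts of cholesterol for myelin.

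Expression was deposited as TPM, a share of all transcripts that is corrected for their length and adds up to the same total in every library. Each library was divided by a size factor (0.727 to 1.295) to bring the typical gene to the same level, and the result is called scaled TPM below. Fold changes are differences of log2(scaled TPM + 0.5) between Npc1-/- and WT, and the constant of 0.5 makes those of weakly expressed genes smaller than they are. Depth, read from the steps between low values, was 40500000 to 50000000 fragments per library. *Npc1* itself (ENSMUSG00000024413) was at 41.1, 45.5 and 43.9 scaled TPM in WT replicates 1, 2 and 3 and at 3.72, 5.17 and 4.35 in Npc1-/- replicates 1, 2 and 3 (log2 fold change -3.17, SE 0.12, adjusted p = 0.000398 by limma), so every library matched its genotype label. *Xist*, the transcript of the inactive X chromosome, stood at 15.6 TPM in Npc1-/- replicate 3, where the Y-linked *Ddx3y* was listed at 0. In the other 5 libraries *Xist* did not exceed 0.01 TPM and *Ddx3y* was between 14.4 and 23.6 TPM. By these transcripts the only female mouse was Npc1-/- replicate 3, so sex was not balanced between the genotypes. Of 13 oligodendrocyte lineage markers, all 13 were expressed in every library and none was called between genotypes (1 had an unadjusted p below 0.05 by limma). *Mbp*, the most abundant of them and a major protein of myelin, took 145100 to 201800 scaled TPM in WT and 183600 to 359500 in Npc1-/- cells.

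None of the 10 genes passed the test between genotypes. All 10 had a mean TPM of at least 0.5 and were tested, with *Ch25h* the lowest at 0.553. In bulk RNA, fewer cells of a type and less RNA per cell cannot be told apart, which holds for every gene below. A gene was called when its Benjamini-Hochberg adjusted p in limma, over all 15245 genes tested, was below 0.05 and its absolute log2 fold change was at least 0.1. By this rule 124 genes, or 0.813% of those tested, were called, 61 higher and 63 lower in Npc1-/- cells, against 0 of the 10. At an unadjusted p below 0.05 there were 3 of the 10 (*Abca1*, *Cyp46a1* and *Nceh1*), where 22.2% of all genes tested reached that level. Every Npc1-/- mouse lay below every WT mouse for 2 of the 10 (*Abca1* and *Apoe*), beside 14.2% of all genes. Every Npc1-/- mouse lay above every WT mouse for another 2 (*Nceh1* and *Cyp46a1*), beside 13.3% of all genes. These counts are near those shares and say nothing particular about the 10 genes. The median log2 fold change was -0.15 over the 10 genes, 7 of which were below 0, and 0.008 over all genes tested. With 3 mice against 3, the smallest p that an exact two-sided permutation test of a single gene can give is 0.1, and those 4 genes reached it.

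**Figure D1:**
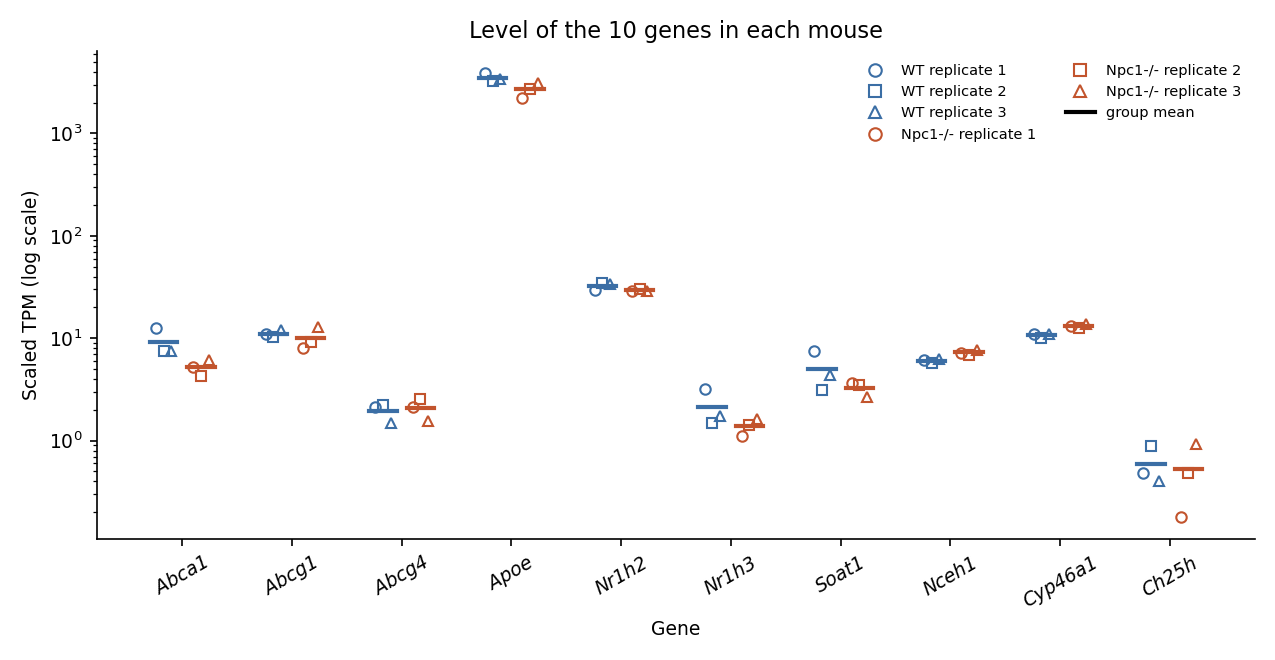
Scaled TPM (log axis) of the 10 genes in each of the 6 mice, with a bar at the mean of each genotype. *Apoe* stands far above the other genes (3509 in WT, on average) and *Ch25h* below them (0.595), and the genotypes separate for *Abca1*, *Apoe*, *Nceh1* and *Cyp46a1*.

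The levels of the 10 genes spanned a wide range, and TPM allows them to be compared per transcript length. In WT cells *Apoe* averaged 3509 ± 342 scaled TPM (SD, n = 3), followed by *Nr1h2* at 32.7 ± 2.67. Below these, *Abcg1* (11.1), *Cyp46a1* (10.6) and *Abca1* (9.25) overlapped from each to the next over the WT mice. *Nceh1* (6.01), *Soat1* (4.99), *Nr1h3* (2.14) and *Abcg4* (1.95) did so as well, and *Ch25h* lay below them all. In Npc1-/- cells *Apoe* and *Nr1h2* kept the first places, *Cyp46a1* (13.1) and *Abcg1* (10.01) overlapped behind them, and *Nceh1* (7.26) stood above *Abca1* (5.23) without overlap.

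*Abca1* encodes the transporter that hands cholesterol and phospholipid to lipid-poor apolipoproteins, and it is a textbook direct target of LXR. The gene (ENSMUSG00000015243) spans bases 53030787 to 53159895 of chromosome 4 on GRCm38 (minus strand). The RefSeq promoter windows, 250 bases before to 50 bases after each start on GRCm38.p6, were searched on both strands for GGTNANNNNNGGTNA, a spaced direct repeat of the half-site that an LXR and RXR pair binds. Only the 250 bases before the start were scanned. Of 11 windows that 8 of the 10 genes had, 1 held a match, that of *Abca1*, beside 204 of 32851 windows of all genes (0.621%). The bases just before the start are shown because they hold that match, at chr4:53159896-53160022 on the minus strand, with the match in capitals from 67 to 53 bases before the start. The repeat runs on the other strand there, where it reads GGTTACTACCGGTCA.

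Abca1: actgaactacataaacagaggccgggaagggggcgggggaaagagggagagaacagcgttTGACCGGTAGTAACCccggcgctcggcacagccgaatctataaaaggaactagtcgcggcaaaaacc

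*Abca1* was at 12.7, 7.55 and 7.47 scaled TPM in WT replicates 1, 2 and 3 and at 5.25, 4.28 and 6.17 in Npc1-/- replicates 1, 2 and 3. All 3 Npc1-/- mice lay below all 3 WT mice, and WT replicate 1 stood well above the rest. The means were 9.25 ± 3.01 and 5.23 ± 0.942 (SD, n = 3 each), and the log2 fold change was -0.74 (SE 0.23, 95% interval -1.27 to -0.21). Its unadjusted p was 0.0132 and its adjusted p was 0.117 by limma, so it was not called. Without WT replicate 1 the log2 fold change was -0.49 (adjusted p = 0.248 by limma). The longest transcript of *Abca1* has 10262 bases, and the 509 genes tested whose longest transcript was within 1.2 times that length had a median log2 fold change of -0.13. A length curve was also removed from each library, fitted on the median transcript length of each gene (5518 bases for *Abca1*). *Abca1* was then at -0.59 (adjusted p = 0.159 by limma).

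*Abcg1*, which passes cholesterol on to lipoprotein particles that already hold lipid, spans bases 31057675 to 31117988 of chromosome 17 (plus strand). It was at 10.9, 10.2 and 12.1 scaled TPM in the WT mice and at 8.06, 9.25 and 12.7 in the Npc1-/- mice. The lowest and the highest value both came from Npc1-/- mice, and the groups overlapped. Its log2 fold change was -0.16 (SE 0.17, 95% interval -0.55 to 0.24, adjusted p = 0.642 by limma).

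*Abcg4*, a close relative of *Abcg1* known from the brain, spans bases 44273188 to 44288615 of chromosome 9 (minus strand). It was at 2.13, 2.23 and 1.49 scaled TPM in WT and at 2.15, 2.55 and 1.54 in Npc1-/- cells. Replicate 3 was the low sample in both genotypes. Its log2 fold change was 0.068 (SE 0.21, 95% interval -0.41 to 0.55, adjusted p = 0.887 by limma), and without the size factors its sign turned to -0.22.

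*Apoe*, the main apolipoprotein of brain lipid particles and the usual acceptor of the sterol that these transporters release, spans bases 19696109 to 19699188 of chromosome 7 (minus strand). It was at 3893, 3235 and 3400 scaled TPM in WT replicates 1, 2 and 3 and at 2240, 2727 and 3135 in the Npc1-/- mice. The groups did not overlap, although Npc1-/- replicate 3 came close to WT replicate 2. The means were 3509 ± 342 and 2701 ± 448 (SD, n = 3 each), a difference of 23.0% of the WT level. The log2 fold change was -0.39 (SE 0.19, 95% interval -0.84 to 0.07, adjusted p = 0.298 by limma). Without the size factors, where the median of all genes tested stood at -0.33, it was -0.76, which is -0.43 relative to that median. It was called there (adjusted p = 0.0154 by limma), in a setting that called 924 of the 15245 genes tested, 870 of them lower.

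Of the receptors, *Nr1h2*, which encodes LXR beta, the form found in most cells, spans bases 44549616 to 44553951 of chromosome 7 (minus strand). It was at 29.6, 34.5 and 33.9 scaled TPM in WT and at 28.7, 30.3 and 29.2 in Npc1-/- cells. WT replicate 1 lay within the range of the Npc1-/- mice, which lay close together. Its log2 fold change was -0.15 (SE 0.09, 95% interval -0.36 to 0.07, adjusted p = 0.403 by limma).

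*Nr1h3* encodes LXR alpha, best known from liver and macrophages, and spans bases 91184061 to 91202834 of chromosome 2 (minus strand). It was at 3.18, 1.49 and 1.73 scaled TPM in WT replicates 1, 2 and 3 and at 1.11, 1.42 and 1.62 in the Npc1-/- mice. WT replicate 1 stood well above every other mouse, and the remaining WT mice overlapped the Npc1-/- mice. The log2 fold change was -0.44 (SE 0.26, 95% interval -1.04 to 0.16, adjusted p = 0.367 by limma), and without WT replicate 1 it was -0.17.

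*Soat1* encodes the enzyme that esterifies cholesterol in the endoplasmic reticulum, and spans bases 156424525 to 156474331 of chromosome 1 (minus strand). It was at 7.43, 3.15 and 4.39 scaled TPM in WT replicates 1, 2 and 3 and at 3.69, 3.47 and 2.68 in the Npc1-/- mice. WT replicate 1 again was the highest mouse, and WT replicate 2 lay among the Npc1-/- mice. Its log2 fold change was -0.47 (SE 0.28, 95% interval -1.13 to 0.18, adjusted p = 0.378 by limma), and without WT replicate 1 it was -0.17.

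*Nceh1*, a hydrolase that frees cholesterol from stored ester, spans bases 27182965 to 27284608 of chromosome 3 (plus strand). It was at 6.11, 5.68 and 6.23 scaled TPM in WT and at 7.22, 6.91 and 7.64 in Npc1-/- cells. All 3 Npc1-/- mice lay above all WT mice, by a narrow and even margin. The means were 6.01 ± 0.292 and 7.26 ± 0.364 (SD, n = 3 each). The log2 fold change was 0.25 (SE 0.10, 95% interval 0.03 to 0.48, unadjusted p = 0.0343 and adjusted p = 0.185 by limma), and without the size factors its sign turned to -0.093, which is 0.23 above the median of all genes there.

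*Cyp46a1* encodes the hydroxylase through which the brain, chiefly its neurons, turns cholesterol into a form that can leave across the blood-brain barrier. It spans bases 108334381 to 108362234 of chromosome 12 (plus strand). It was at 10.99, 9.95 and 10.96 scaled TPM in WT and at 13.1, 12.5 and 13.7 in Npc1-/- cells. The Npc1-/- mice all lay above the WT mice, with means of 13.1 ± 0.625 and 10.6 ± 0.589 (SD, n = 3 each), a difference of 23.0% of the WT level. Its log2 fold change was 0.29 (SE 0.09, 95% interval 0.07 to 0.50, unadjusted p = 0.0156 and adjusted p = 0.127 by limma), and without the size factors its sign turned to -0.071, which is 0.25 above the median of all genes there.

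*Ch25h*, which makes an oxysterol that immune cells release, is a gene of 1 exon that spans bases 34473778 to 34475164 of chromosome 19 (minus strand). It was at 0.486, 0.895 and 0.404 scaled TPM in WT and at 0.181, 0.480 and 0.922 in Npc1-/- cells. It has a single transcript, so its fragments could be estimated from FPKM (fragments per kilobase of transcript and per unit of library size) and the depth found. They came to 22, 30 and 15 in the WT mice and to 7, 15 and 28 in the Npc1-/- mice. The lowest of these counts, 7, has a 95% Poisson interval from 2.81 to 14.4, and the highest, 30, one from 20.2 to 42.8, which cover counting error only. The count of 28 in Npc1-/- replicate 3 has an interval from 18.6 to 40.5, apart from that of 7 in Npc1-/- replicate 1. The genotypes overlapped, with a log2 fold change of -0.13 (SE 0.32, 95% interval -0.88 to 0.62, adjusted p = 0.858 by limma). A difference was not detectable at this depth, spread between mice and number of mice.

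Of the 10 genes, *Abcg1*, *Nr1h3*, *Soat1*, *Nceh1* and *Ch25h* overlap another annotated gene, on the opposite strand for *Soat1* and *Ch25h* and on both strands for *Nr1h3*. Whether the strand was used in counting is not given in the sources used here, so fragments of such pairs may not be told apart.

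**Figure D2:**
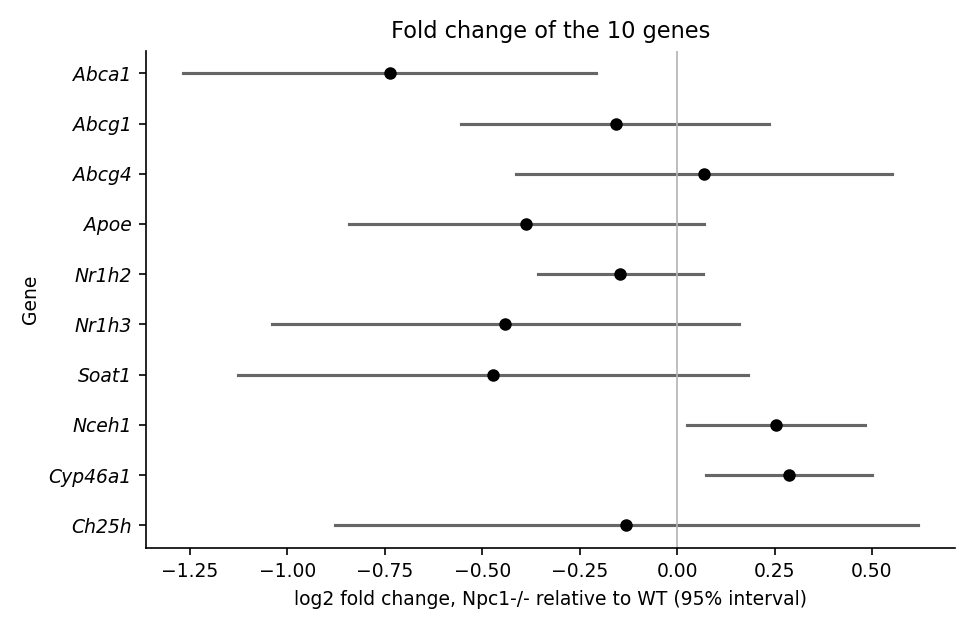
log2 fold change of each of the 10 genes in Npc1-/- relative to WT cells (points) with its 95% interval from limma (bars). The intervals of *Abca1* (-1.27 to -0.21), *Nceh1* (0.03 to 0.48) and *Cyp46a1* (0.07 to 0.50) leave out 0 before adjustment over all genes, and the other 7 include it.

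Ratios within a library do not depend on how libraries are scaled against each other, and 5 of them were compared by exact two-sided permutation tests, whose smallest p is 0.1. *Soat1* relative to *Nceh1*, the enzyme that stores ester over one that releases it, was 1.22, 0.556 and 0.705 in WT and 0.511, 0.503 and 0.351 in Npc1-/- cells. The groups did not overlap, and the difference of the mean log2 ratios was -0.80 (exact permutation p = 0.1, adjusted over the 5 ratios 0.5). Without WT replicate 1 that difference was -0.48. *Abca1* relative to *Abcg1* was 1.17, 0.736 and 0.620 in WT and 0.651, 0.463 and 0.484 in Npc1-/- cells, a difference of -0.62 on the log2 scale with groups that overlapped (exact permutation p = 0.2, adjusted 0.5). It was -0.36 without WT replicate 1. The ratio of *Nr1h3* to *Nr1h2* was 0.108, 0.0432 and 0.0511 in WT and 0.0386, 0.0466 and 0.0556 in Npc1-/- cells. Its difference of -0.42 on the log2 scale was -0.018 without WT replicate 1 (exact permutation p with all mice 0.5, adjusted 0.6). *Abcg4* to *Abcg1* and *Ch25h* to *Cyp46a1* differed by 0.25 and -0.68 on the log2 scale, both with overlapping groups and an adjusted p of 0.6 by exact permutation. With each mouse left out in turn, the first ranged from 0.005 (without WT replicate 3) to 0.64 (without Npc1-/- replicate 3). The second ranged from -1.19 (without Npc1-/- replicate 3) to -0.052 (without Npc1-/- replicate 1).

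Genes around the pathway were read from 5 lists, of which 13 of 16 other LXR targets, 13 of 14 LXR partners and co-regulators, 12 of 15 other lipid exporters and acceptors, 14 of 16 sterol ester and lipid droplet genes and 10 of 13 other sterol hydroxylases and oxysterol enzymes had enough expression to be tested. Of the 13 other LXR targets tested, none was called (4 had an unadjusted p below 0.05 by limma, all lower in Npc1-/- cells). At that level stood 22.2% of all genes tested. The median log2 fold change of the 13 was -0.33, and 9 were below 0, beside 49.0% of all genes. In 4 of them every Npc1-/- mouse lay below every WT mouse, beside 14.2% of all genes. Without Npc1-/- replicate 1 the median was -0.19, and with each mouse left out in turn it ranged from -0.41 to -0.19. Without the size factors it was -0.68, where the median of all genes was -0.33. The lowest were *Lpl*, lipoprotein lipase, at -0.72 (adjusted p = 0.0623 by limma) and *Pltp*, a phospholipid transfer protein, at -0.50 (adjusted p = 0.116). Without the size factors both were called (adjusted p of 0.0398 and 0.0311 by limma). The highest were the fatty acid enzymes *Fasn* at 0.26 and *Scd2* at 0.12, with adjusted p of 0.248 and 0.560 by limma. Without the size factors *Fasn* was at -0.11 and *Scd2* at -0.26, and with quantile normalization *Scd2* was at -0.20. Of the 10 of these targets that had RefSeq promoter windows, 14 in all, *Fasn* and *Srebf1* each had a window with the repeat searched above.

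None of 13 RXR partners and co-regulators of LXR was called (3 had an unadjusted p below 0.05 by limma, all lower), and their median was -0.10. The lowest were the co-regulators *Nrip1* at -0.39 and *Ncoa1* at -0.37 (adjusted p of 0.178 and 0.0829 by limma). The highest were *Rxrb* at 0.11 and *Hdac3* at 0.07, which were at -0.25 and -0.29 without the size factors.

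None of 12 other lipid exporters and acceptors was called either (2 higher and 3 lower at an unadjusted p below 0.05 by limma), with a median of -0.19. The transporter *Abca9* was at -1.07 and *Clu*, an apolipoprotein known from astrocytes, at -0.65 (adjusted p of 0.0546 and 0.0602 by limma). Under other settings *Abca9* was called without Npc1-/- replicate 3 (-1.28, adjusted p = 0.0305 by limma), *Clu* with the filter on mean TPM raised to 5 (adjusted p = 0.0473), and both without the size factors (adjusted p of 0.0157 and 0.0254). *Apod*, an apolipoprotein of myelinating glia, was at 0.72 and *Abca2*, a transporter of oligodendrocytes, at 0.49 (adjusted p of 0.0956 and 0.0687 by limma).

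Each of the remaining lists held 1 called gene, and both of these genes rose. *Dgat2*, which makes triglyceride for lipid droplets and does not esterify sterol, was at 15.6, 17.1 and 17.8 scaled TPM in WT and at 31.0, 30.4 and 28.6 in Npc1-/- cells. The groups lay far apart relative to their spread (log2 fold change 0.82, SE 0.09, adjusted p = 0.0227 by limma). It was the 1 call among 14 sterol ester and lipid droplet genes, whose median was 0.016 and ranged from -0.056 to 0.13 with each mouse left out in turn. The others named from that list were *Vmp1*, which acts in droplet and autophagosome formation, at 0.29 (-0.077 without the size factors), the triglyceride lipase *Pnpla2* at -0.39 and *Dgat1*, which like *Dgat2* makes triglyceride, at -0.32 (adjusted p of 0.132, 0.436 and 0.386 by limma). *Pnpla2* was called without the size factors (-0.76, adjusted p = 0.0441 by limma).

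*Cyp27a1*, a mitochondrial sterol hydroxylase whose main product is an LXR ligand, was at 10.1, 11.1 and 12.4 scaled TPM in WT and at 19.5, 27.1 and 22.2 in Npc1-/- cells. The Npc1-/- mean of 22.9 ± 3.82 stood over the WT mean of 11.2 ± 1.16 (SD, n = 3 each; log2 fold change 1.00, SE 0.14, adjusted p = 0.0386 by limma). It was the 1 call among 10 other sterol hydroxylases and oxysterol enzymes, whose median was 0.044. The sulfotransferase *Sult2b1* was at 0.52, and the bile acid enzymes *Amacr* and *Hsd3b7* were at -0.29 and -0.28 (adjusted p of 0.283, 0.531 and 0.342 by limma). *Sult2b1* had a mean TPM of 0.527, just above the filter of 0.5, and its groups overlapped. The calls of *Dgat2* and of *Cyp27a1* were each lost in 5 of the 6 fits that left out 1 mouse and held in the fit without Npc1-/- replicate 3. Their log2 fold changes ranged from 0.76 to 0.85 and from 0.87 to 1.10 over those fits, and without the size factors they were 0.45 and 0.63, with adjusted p of 0.217 and 0.0920 by limma. With all mice, the call of *Cyp27a1* was also lost without the filter on low values (adjusted p = 0.104) and without the variance trend (adjusted p = 0.0648 by limma).

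**Figure D3:**
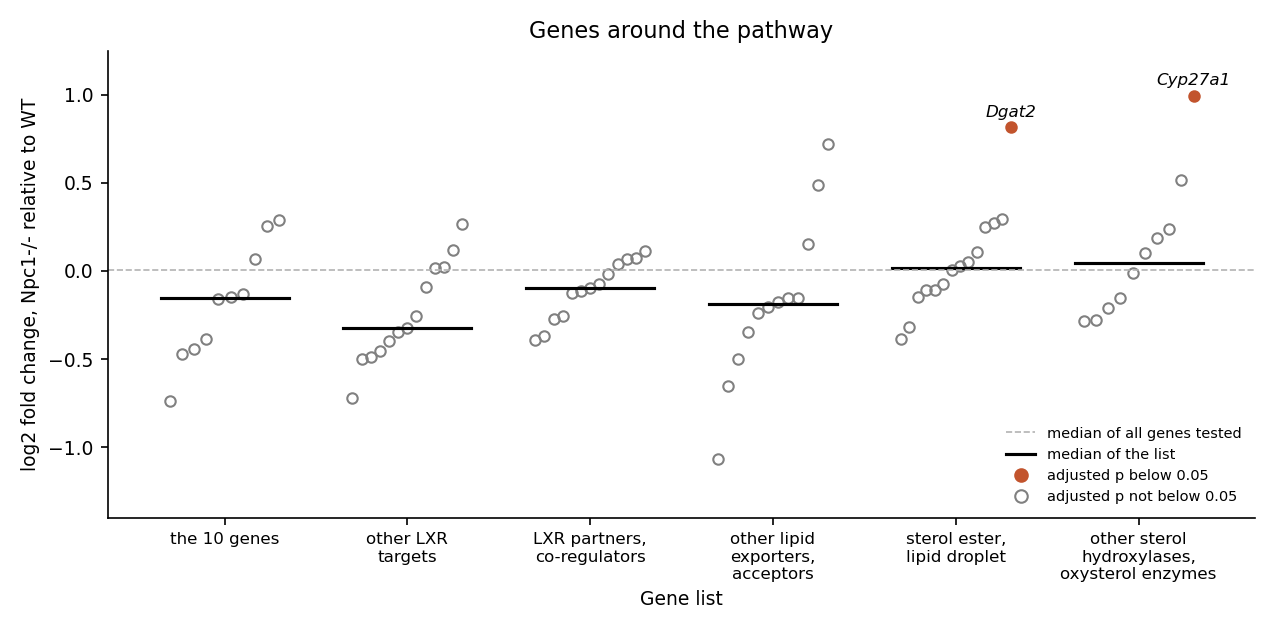
log2 fold change (Npc1-/- relative to WT) of the tested genes of the 10 described here and of 5 lists around them, ordered within each list, with a bar at the median of each list and a dashed line at the median of all genes tested. *Dgat2* and *Cyp27a1* are the 2 filled points, with an adjusted p below 0.05.

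Markers of other cell types also differed between genotypes in these libraries. Of 7 macrophage markers tested, all 7 were lower at an unadjusted p below 0.05 by limma, beside 22.2% of all genes in either direction. The 4 called lower were *Cd163* (log2 fold change -2.29), *Mrc1* (-1.90), *F13a1* (-1.56) and *Cbr2* (-1.48), with adjusted p of 0.0102, 0.0364, 0.0364 and 0.0272 by limma. *Cd163* was at 0.0726 to 0.234 scaled TPM in the Npc1-/- mice, below the constant of 0.5, so the size of its fold change depends on that constant. It was -3.48 with a constant of 0.1 and -1.68 with 1. The summed level of the macrophage list was 20.7 to 34.4 scaled TPM in WT and 5.71 to 7.21 in Npc1-/- cells. Of 12 microglia markers 10 were below 0, and 9 were lower at an unadjusted p below 0.05 by limma. Called lower was 1 of them, *Tmem119* (-1.44, adjusted p = 0.0442 by limma). *C1qa*, the most abundant of the microglia markers, was at -0.78 (adjusted p = 0.169 by limma). Their sum was 261 to 408 scaled TPM in WT and 133 to 243 in Npc1-/- cells.

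Markers of the vessel wall and of astrocytes were read in the same way. Of 8 mural cell markers all 8 were below 0, and 6 were lower at an unadjusted p below 0.05 by limma. Called lower was 1 of them, *Notch3* (-1.07, adjusted p = 0.0429 by limma). The most abundant, *Acta2*, was at -0.95 (adjusted p = 0.0602 by limma). It was called without Npc1-/- replicate 3 (adjusted p = 0.0404 by limma) and with the filter raised to 5 (adjusted p = 0.0471). The sum of the mural markers was 669 to 920 scaled TPM in WT and 357 to 488 in Npc1-/- cells. None of 10 endothelial markers was called (9 had an unadjusted p below 0.05 by limma, all lower), with *Cldn5*, the most abundant, at -0.54 and sums of 1324 to 1429 against 629 to 1055 scaled TPM. None of 12 astrocyte markers was called (5 lower and 1 higher at an unadjusted p below 0.05 by limma). Their sums overlapped, at 821 to 895 scaled TPM in WT and 517 to 1002 in Npc1-/- cells, and *Aldoc*, the most abundant, was at -0.21. Of these 12, 11 were below 0, with a median of -0.65, and 8 had every Npc1-/- mouse below every WT mouse, beside 14.2% of all genes. The glutamate transporter genes *Slc1a2* and *Slc1a3* were at -0.80 and -0.73, and *Gfap* was at 1.01 (adjusted p of 0.0557, 0.0623 and 0.108 by limma).

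Of 12 neuron markers 2 were called higher, the neurofilament genes *Nefl* and *Nefm* (1.22 and 1.11, adjusted p of 0.0185 and 0.0134 by limma). At an unadjusted p below 0.05 by limma 3 were higher. *Tubb3*, the most abundant, was at 0.44 (adjusted p = 0.456 by limma). The synaptic genes *Snap25* and *Syn1* were at 0.302 and 0.175, and *Rbfox3* and *Stmn2* were at 0.334 and 0.525. Their adjusted p were 0.610, 0.619, 0.446 and 0.192 by limma. The other synaptic and transmitter genes, *Syt1*, *Slc17a7*, *Slc17a6*, *Gad1* and *Gad2*, were at 0.062, 0.036, 0.005, 0.073 and -0.002. Of the 12 markers 1 was below 0. The median of the list was 0.24. Its sum was 119 to 162 scaled TPM in WT and 185 to 228 in Npc1-/- cells. Of all these marker genes, only the macrophage marker *Ccl24* was listed at 0 in a library. Leaving out 1 mouse ended these 8 marker calls in 2 of 6 fits for *Cd163* and in 4 or 5 of 6 for the others. With all mice, the calls of *Tmem119*, *Mrc1*, *F13a1*, *Cbr2*, *Nefl* and *Notch3* were lost without the filter on low values, those of *Tmem119* and *Notch3* also without the variance trend, and that of *Nefm* without the size factors. That last setting added calls of *C1qa*, *Cldn5* and *Acta2*, all lower (adjusted p of 0.0224, 0.0441 and 0.0115 by limma).

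Some mice were extreme both for markers and for the sterol genes. WT replicate 1 had the highest sum of microglia markers (408), of macrophage markers (34.4), of endothelial markers (1429) and of mural markers (920), and it was the highest mouse for *Abca1*, *Apoe*, *Nr1h3* and *Soat1*. Npc1-/- replicate 1 had the lowest sum of microglia (133), macrophage (5.71), astrocyte (517) and endothelial (629) markers. It was the lowest mouse for *Apoe*, *Nr1h2*, *Nr1h3*, *Abcg1* and *Ch25h*. It was not the lowest for *Abca1* (5.25, with 4.28 in Npc1-/- replicate 2), and it was the highest Npc1-/- mouse for *Soat1* (3.69). The lowest mural sum was in Npc1-/- replicate 2 (357), and the highest astrocyte sum was in Npc1-/- replicate 3 (1002). The part of these cell types in the levels of *Abca1*, *Apoe*, *Nr1h3* and *Soat1*, which are also expressed outside the oligodendrocyte lineage, was not tested. The same holds for neurons and *Cyp46a1*.

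**Figure D4:**
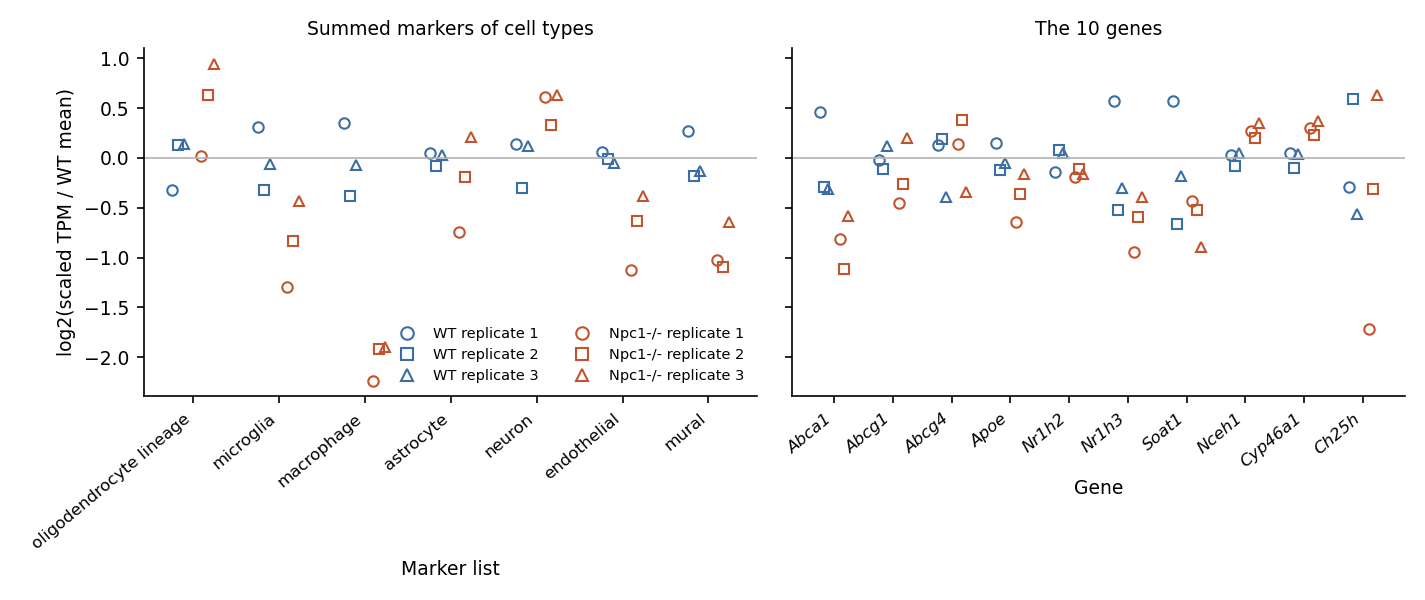
Summed markers of 7 cell types (left) and the 10 genes (right) in each mouse, as log2 of scaled TPM over the WT mean. Macrophage, microglia, endothelial and mural sums lie lower in all 3 Npc1-/- mice than in any WT mouse, neuron sums lie higher, and WT replicate 1 is the highest mouse for these 4 non-neuronal sums and for *Abca1*, *Apoe*, *Nr1h3* and *Soat1*.

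Under the 12 other settings that kept all mice, *Apoe* without the size factors was the single call among the 10 genes. Without the size factors 924 of the 15245 genes tested were called, 870 of them lower. The 7 genes below 0 were below 0 in every one of the 12 settings that tested them. *Abcg4*, *Nceh1* and *Cyp46a1* were above 0 in these settings apart from TPM without the size factors, where all 10 genes were below 0. Changing the filter, the variance trend, the robust fit, a block on replicate number or the chromosomes kept cannot alter a fold change. In those settings the direction was fixed in advance, and only the adjusted p could move. Without Npc1-/- replicate 3, the mouse with *Xist*, none of the 10 was called and the lowest adjusted p was 0.1204 by limma, for *Abca1*. Over the 6 fits with 1 mouse left out, *Abca1* ranged from -0.86 to -0.49, *Apoe* from -0.51 to -0.26, *Nceh1* from 0.21 to 0.29 and *Cyp46a1* from 0.24 to 0.32.

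**Figure D5:**
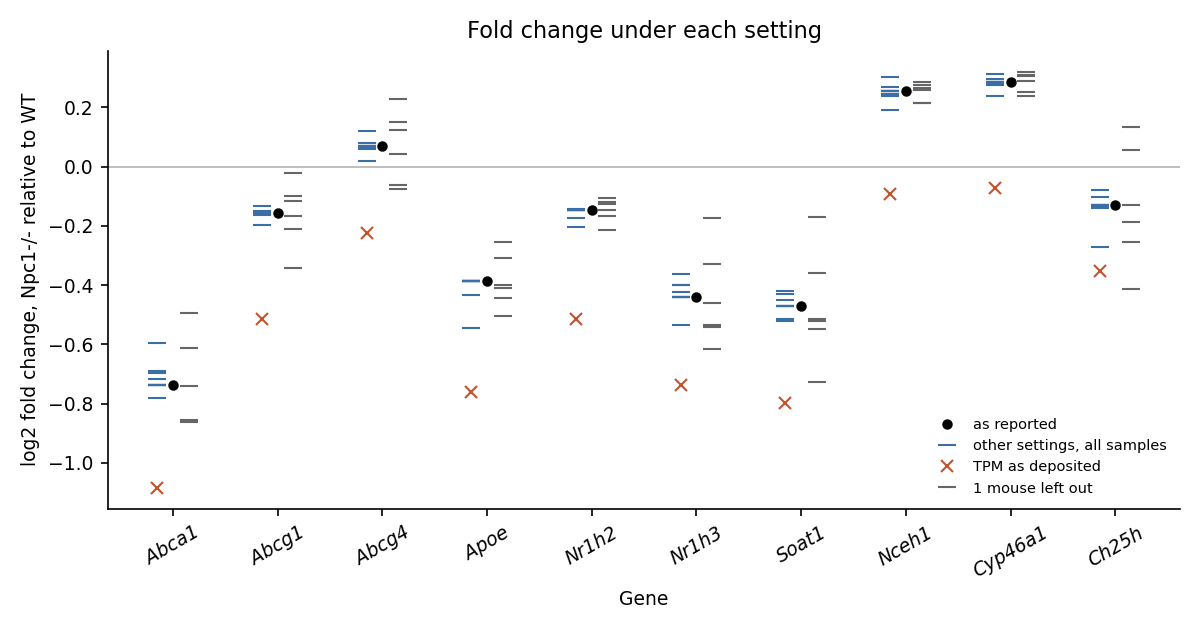
log2 fold change (Npc1-/- relative to WT) of the 10 genes as reported (black), under other settings with all 6 mice (blue), without the size factors (crosses, TPM as deposited) and with 1 mouse left out (grey). Leaving out the size factors moves every gene down and puts *Abcg4*, *Nceh1* and *Cyp46a1* below 0, and leaving out 1 mouse moves *Nr1h3* and *Soat1* as far up as -0.17.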

How the data were processed

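RNA from O4-purified cells of 3 WT and 3 Npc1-/- mice was analysed. Per the methods, reads were trimmed (bbduk), aligned to GRCm38 (STAR) and counted per gene (featureCounts). The submitters' processing notes list cutadapt 2.3, STAR 2.7.8a and RSEM 1.3.3. How the deposited TPM and FPKM were made from reads is not described further. The authors deposited TPM and FPKM with 2 decimals. TPM is not a count, so no count test was run. TPM was divided by median-of-ratios size factors (18690 genes above 0 in every library), and log2(scaled TPM + 0.5) was fitted, for genes whose TPM averaged 0.5 or more, with limma 3.58.1 in R 4.3.3 (trend, genotype as the only factor, two-sided). The pseudocount, the mean TPM filter, each mouse and other choices were varied. In a simulation over these 15245 genes, 164 of 200 given a log2 change of 1.5 were recovered, and 9 unchanged genes were called. Positions and transcript lengths came from GENCODE M21 (55141 of 55492 identifiers matched). Depth was found from whole multiples of 1 fragment in low FPKM values of genes with 1 transcript, of which 82.5% to 85.4% lay within 0.15 of a whole number (30.0% by chance).

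The 10 genes and all lists were chosen with earlier results of these data known. Named from each pathway list were the 2 highest and 2 lowest fold changes and every called gene, and from each marker list the most abundant and every called gene. *Srebf1*, *Ccl24*, *Syt1*, *Slc17a7*, *Slc17a6*, *Gad1*, *Gad2*, *Snap25*, *Syn1*, *Rbfox3*, *Stmn2*, *Slc1a2*, *Slc1a3* and *Gfap* are outside that rule and were chosen after their values were seen.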

Additional observations from a re-analysis of the deposited data

How the results depend on the processing

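Over 18 settings, 12 with all mice and 6 that each left out 1 mouse, 168 of 176 log2 fold changes of the 10 genes kept their direction and their side of the threshold. That count includes settings that cannot alter a fold change (filter, variance trend, robust fit, replicate block, chromosomes kept), where only the adjusted p could move. Without a size factor (TPM as deposited), where the median of all genes tested moved to -0.33, 924 genes were called, 54 higher and 870 lower, 1 of the 10 genes was called (*Apoe*, -0.76), and the log2 fold changes of *Abcg4* (-0.22), *Cyp46a1* (-0.071), *Nceh1* (-0.093), *Fasn* (-0.11), *Hdac3* (-0.29), *Rxrb* (-0.25), *Scd2* (-0.26) and *Vmp1* (-0.077) turned below 0. This follows from the missing division, since the size factors were higher in WT on average. The number of genes called was 240 with quantile normalization (96 higher, 144 lower), which put *Scd2* at -0.20 and *Mbp* at 0.00. It was 447 with a mean TPM of at least 5 (175 higher, 272 lower), 21 without a filter and 42 without the variance trend, and the cause was not tested. With 1 mouse left out it ranged from 5 (without Npc1-/- replicate 2) to 477 (without Npc1-/- replicate 3), *Abcg4* ranged from -0.076 to 0.23, *Ch25h* from -0.41 to 0.13 and *Aldoc* from -0.48 to 0.093. Without chromosomes X, Y and M, 43.9% of calls were higher, against 49.2% as reported.

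The replicate numbers 1 to 3 occur in both genotypes but belong to different mice. The deviations of same-numbered libraries from their genotype means correlated at 0.414, 0.0602 and 0.326. Those of differently numbered libraries correlated at -0.391 to 0.0548. Each library had its highest correlation with its own number, by a narrow margin for Npc1-/- replicate 2 (0.0602, against 0.0548 with WT replicate 3). Deviations from a mean of 3 libraries are bound to each other, so these correlations are not independent. The labels do not say whether a number marks a pair of mice, and the fit reported above did not pair them. With a replicate block 2011 of the 15245 genes tested were called (1143 higher, 868 lower). None of the 10 genes was called, and 10 genes are too few to read this against that share. Their lowest adjusted p was then 0.0584 by limma (*Abca1*). Of the other genes named in the report, *Abca2* and *Apod* were then called higher (adjusted p of 0.0175 and 0.0127 by limma). *Abca9*, *Clu*, *Lpl* and *Acta2* were called lower (adjusted p of 0.0298, 0.0175, 0.0364 and 0.0199 by limma). For the ratios, the replicate block left the differences as they were, and the smallest paired p was 0.25 by an exact sign-flip permutation. The curve on median transcript length was chosen after seeing the data and left 146 genes called.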
